A study of Homo sapiens with 9 samples.

Results

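Antigen presentation genes encode the proteins that load peptides onto human leukocyte antigen (HLA) molecules and carry them to the cell surface. The account covers 9 such genes, HLA-DPA1, HLA-DMA, HLA-E, CD74, CIITA, B2M, TAP1, TAP2 and TAPBP, out of 19775 genes that the arrays read with a probe set of exactly 1 gene symbol. A probe set is a group of short oligonucleotides that together report 1 transcript region. The 9 genes were read by 24 probe sets, all of them taken by gene symbol alone. HLA-DPA1 was chosen by its measured signal, which was lower after knockdown. Its values in comparisons that hold the knockdown arrays are therefore given as a description without a test, and the rule uses no values of the other 8 genes.

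The samples were HEK293 cells, an established line from human embryonic kidney that is not a professional antigen-presenting cell. The 9 arrays form 3 groups of 3: cells in which hMOF, the product of KAT8, was knocked down with small interfering RNA, cells transfected with a plasmid encoding hMOF, and wild type cells described as untreated. MOF is a histone acetyltransferase whose mark is acetylation of lysine 16 on histone H4. The series' design text also names cells treated with a control double-stranded RNA, which are not among the 9 and were not analysed here. The wild type cells were not transfected, so the effects of transfection and of MOF cannot be told apart. Whether replicates are separate cultures is not stated, and p-values then measure a spread that may be technical. Values are signals on a linear scale of arbitrary units, scaled by the authors so that every array had the same trimmed mean. KAT8 itself averaged 551.6 ± 140 in knockdown cells, 4695 ± 88.9 in overexpression cells and 3318 ± 448 in wild type cells (SD, n = 3 each) at its brighter probe set. There it passed lower in knockdown against wild type (log2 -2.61, limma adjusted p = 4.72e-05). In overexpression against wild type it did not pass (log2 0.51, limma adjusted p = 0.259). The dimmer probe set had a log2 difference of 0.11 in that comparison (limma adjusted p = 0.91).

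HLA class II molecules are pairs of an alpha and a beta chain (HLA-DP, HLA-DQ, HLA-DR) that present peptides from endosomes to helper T cells. CD74, the invariant chain, holds the groove until HLA-DM exchanges its remnant for a peptide, and HLA-DO restrains HLA-DM. Most class II genes share a promoter module of S, X and Y boxes, bound by the RFX complex, CREB1 and NF-Y, on which the co-activator CIITA assembles. Class I molecules, among them HLA-E, pair with B2M and present peptides that the proteasome makes, that TAP1 and TAP2 carry into the endoplasmic reticulum and that TAPBP (tapasin) helps to load.

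The start regions of 5 genes are shown because they differ in how the signal behaved after knockdown, as given below: HLA-DPA1, HLA-DMA and HLA-DRB1 were lower, CD74 stayed among the dim probe sets and B2M did not pass the test. Each line holds 250 bases before and 50 after the gene's start, from RefSeq on GRCh38.p14, on the gene's own strand. Capitals mark matches, on either strand, to the Y box core CCAAT or to a loose form of the X box core, CNAG then NN then ACNG without a gap, where N is any base.
HLA-DPA1, chr6:33073600-33073899 (minus strand): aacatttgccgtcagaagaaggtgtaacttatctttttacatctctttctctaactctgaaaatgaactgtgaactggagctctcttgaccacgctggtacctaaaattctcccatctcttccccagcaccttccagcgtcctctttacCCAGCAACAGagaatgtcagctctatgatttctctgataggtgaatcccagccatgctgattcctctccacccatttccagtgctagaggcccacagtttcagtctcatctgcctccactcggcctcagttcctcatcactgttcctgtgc
HLA-DMA, chr6:32953048-32953347 (minus strand): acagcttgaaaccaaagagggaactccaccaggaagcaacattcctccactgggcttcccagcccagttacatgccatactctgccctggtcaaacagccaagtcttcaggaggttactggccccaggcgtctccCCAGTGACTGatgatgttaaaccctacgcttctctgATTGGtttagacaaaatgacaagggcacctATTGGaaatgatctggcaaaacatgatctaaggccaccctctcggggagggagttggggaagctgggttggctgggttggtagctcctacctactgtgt
HLA-DRB1, chr6:32589799-32590098 (minus strand): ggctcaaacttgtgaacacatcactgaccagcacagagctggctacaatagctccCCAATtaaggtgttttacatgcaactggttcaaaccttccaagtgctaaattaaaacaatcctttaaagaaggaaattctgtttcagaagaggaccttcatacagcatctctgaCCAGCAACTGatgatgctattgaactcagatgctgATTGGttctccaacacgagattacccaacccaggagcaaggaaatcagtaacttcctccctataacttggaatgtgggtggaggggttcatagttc
CD74, chr5:150412861-150413160 (minus strand): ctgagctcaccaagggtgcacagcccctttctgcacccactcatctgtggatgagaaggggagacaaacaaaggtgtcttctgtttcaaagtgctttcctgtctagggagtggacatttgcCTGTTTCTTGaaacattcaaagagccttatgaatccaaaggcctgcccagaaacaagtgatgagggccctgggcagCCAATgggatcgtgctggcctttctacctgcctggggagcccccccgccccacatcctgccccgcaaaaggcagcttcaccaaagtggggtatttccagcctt
B2M, chr15:44711267-44711566 (plus strand): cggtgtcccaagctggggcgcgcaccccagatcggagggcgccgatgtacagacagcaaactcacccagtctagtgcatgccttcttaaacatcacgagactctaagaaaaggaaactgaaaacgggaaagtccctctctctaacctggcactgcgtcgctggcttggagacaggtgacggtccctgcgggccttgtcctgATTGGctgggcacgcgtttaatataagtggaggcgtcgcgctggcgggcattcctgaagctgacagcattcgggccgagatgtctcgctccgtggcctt
The X box form was loosened after these sequences were read, so its matches are a description. Among all 35116 start regions of this length, 34.6% held the Y box core, 14.0% the X box form and 4.78% both, and no match of one overlapped a match of the other. Of the 9 members 7 had a start region, 9 regions in all, and 4 of these genes held the Y box core (HLA-DMA, CD74, B2M and TAP1), 4 the X box form (HLA-DPA1, HLA-DMA, CD74 and TAP1) and 3 both in 1 region. HLA-DPA1 had 2 regions, and the other one, chr6:33080699-33080998 (minus strand), held neither. Of the 8 other class II genes described below, 7 had a region, all 7 held the Y box core and 5 held both. Of 11 class I and class I-like genes beyond the members, 10 had a region. Among these 10, 9 held the Y box core, 3 the X box form and 2 both in 1 region, so the Y box core was not particular to class II genes. In HLA-DMA the X box form began 115 bases before the start and the Y box cores 79 and 49 bases before it. In CD74 they began 129 and 53 bases before the start. The order was reversed in TAP1, with the Y box core 249 and the X box form 80 bases before the start.

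After knockdown, HLA-DPA1, HLA-DMA and the 5 other class II genes bright enough to be tested were lower than in wild type cells, while B2M and TAP1 did not pass the test. HLA-DPA1, the alpha chain of HLA-DP, had signals of 971, 794 and 1126.5 in knockdown cells, 4056, 3502 and 3560.3 in overexpression cells and 3464, 3393 and 2913 in wild type cells at its brightest probe set. Every knockdown array lay below every other array there. Its second probe set gave 160.2, 232 and 177 in knockdown cells, 896, 708 and 834 in overexpression cells and 866, 754 and 594 in wild type cells, with the same separation. The dimmest gave 74.0, 4.4 and 18.3 in knockdown cells, 403, 333 and 239 in overexpression cells and 312, 274 and 299 in wild type cells. The mean over the 9 arrays there was under the filter, a signal of 188, that a probe set had to reach to be tested. As log2(signal + 1), knockdown minus wild type was -1.77 (SE 0.14) and -1.96 (SE 0.21) at the brighter probe sets, or 29.6% and 25.7% of the mean wild type signal. This fall is what HLA-DPA1 was chosen for. Without overlap in this direction were also 18.3% of all tested probe sets, a share from which nothing is read here. Within replicate numbers 1, 2 and 3 the difference at the brightest probe set was -1.83, -2.09 and -1.37.

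HLA-DMA is the alpha chain of the HLA-DM peptide exchanger. The rule does not use its values, but it was taken up with earlier results of these data known. Its single probe set gave 226.8, 74.1 and 84.9 in knockdown cells, 658, 727 and 699 in overexpression cells and 434, 493 and 447 in wild type cells. All 3 knockdown arrays were below all others, and knockdown replicate 1 was the highest of the 3. HLA-DMA fell 4.03-fold in knockdown cells, a log2 fold change of -2.01 with an SE of 0.36 (limma adjusted p = 0.00436). The probe set passed the filter on dim signals through the overexpression and wild type arrays, since its knockdown mean was below it. The call was kept in all 6 fits without 1 array, at adjusted p up to 0.0224. With a pseudocount of 100 in place of 1 the log2 fold change was -1.35, and the call was kept. In bulk RNA, fewer cells with the transcript and less of it per cell cannot be told apart.

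CD74 and CIITA, the class II partner chain and co-activator, were read by 3 probe sets each, and none of the 6 reached the filter. CD74 signals lay between 8.5 and 175 in knockdown cells, 15.4 and 128 in overexpression cells and 7.1 and 125 in wild type cells. Those of CIITA lay between 8.1 and 182 in knockdown cells, 4.6 and 202 in overexpression cells and 13.1 and 131 in wild type cells. All 6 overlapped between knockdown and wild type arrays. Deposited signals of this size cannot show whether either transcript was present, and no detection call was used.

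**Figure D1:**
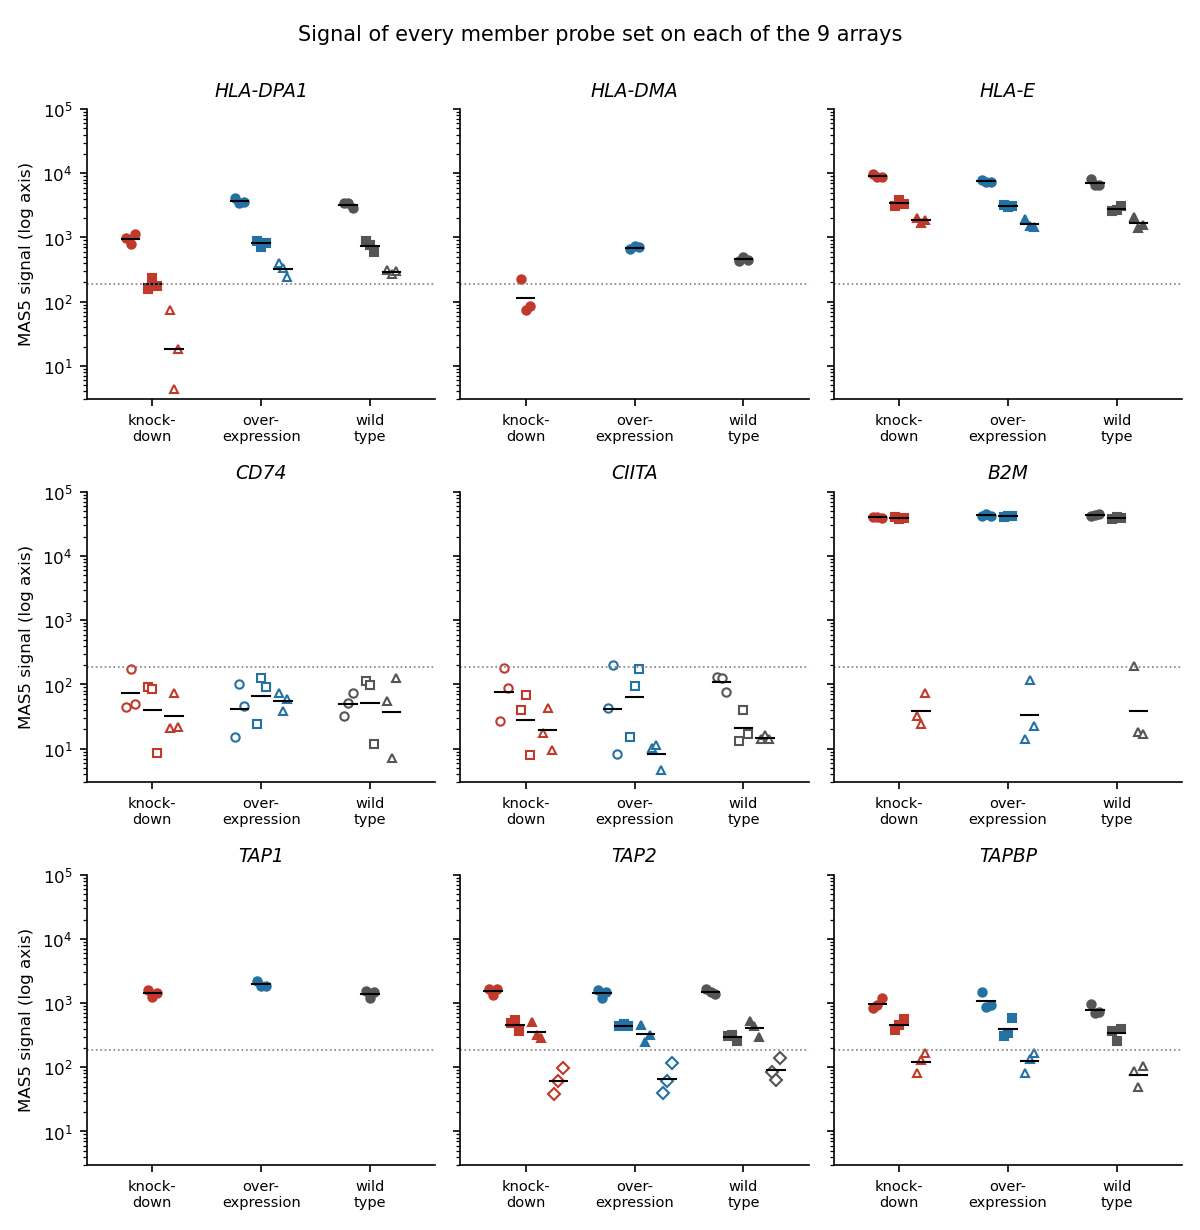
Signal of each of the 24 member probe sets on a log axis, with 1 panel per gene and 3 arrays per group (knockdown, overexpression, wild type). Marker shapes separate the probe sets of a gene, filled markers were tested and open ones were not, black ticks are geometric means and the dotted line is the filter at a signal of 188. All 3 HLA-DPA1 probe sets and HLA-DMA are lower on the knockdown arrays, while CD74 and CIITA lie under or about the line in every group.

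The other class II genes, a list of 8 beyond the members, showed the same direction wherever a test was made on the brightest probe set. Of these 8, 5 were bright enough to be tested and all 5 fell, with a median log2 fold change of -1.43 in knockdown against wild type. Over the 12036 genes tested with 1 probe set each, the median was -0.04 and 12.7% fell. HLA-DRB1, a beta chain of HLA-DR, had signals of 176, 171 and 239 in knockdown cells, 1061.5, 1038 and 911 in overexpression cells and 993, 677 and 882 in wild type cells. It fell 4.33-fold, with no overlap (limma adjusted p = 0.000189), and the log2 fold change was -2.11 (SE 0.20). The beta partner of HLA-DPA1, HLA-DPB1, gave 129.5, 256 and 255 in knockdown cells, 731, 615 and 804 in overexpression cells and 601, 844 and 681 in wild type cells. HLA-DPB1 fell 3.43-fold (limma adjusted p = 0.00213), and its log2 fold change was -1.78 (SE 0.27). HLA-DMB, the beta partner of HLA-DMA, gave 558, 514 and 369 in knockdown cells, 1105, 1967 and 1274 in overexpression cells and 1245.5, 1410.2 and 1170.3 in wild type cells. HLA-DMB fell 2.69-fold, with every knockdown array below the rest (log2 fold change -1.43, SE 0.22, limma adjusted p = 0.00246).

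HLA-DQB1, a beta chain of HLA-DQ, fell 2.17-fold at its brightest probe set (log2 -1.12, SE 0.16, limma adjusted p = 0.00143). The signals there were 1020.1, 720.3 and 689.7 in knockdown cells, 2059, 2342 and 2002.5 in overexpression cells and 1633, 1713 and 1850.1 in wild type cells. Of its 5 tested probe sets 3 passed and the other 2 had lower means after knockdown without passing (limma adjusted p = 0.156 and 0.0533). HLA-DOA, the alpha chain of the HLA-DM inhibitor HLA-DO, had a log2 fold change of -1.08 at its brightest probe set and passed (SE 0.25, limma adjusted p = 0.0147). Its signals there were 346, 181 and 235 in knockdown cells, 591, 529 and 729 in overexpression cells and 479, 518 and 561 in wild type cells. That call ended when wild type replicate 3 or either of knockdown replicates 2 and 3 was left out, at adjusted p of at most 0.0522. Its second tested probe set had a log2 fold change of -0.04 (limma adjusted p = 0.942). HLA-DRA, HLA-DQA1 and HLA-DOB did not reach the filter at any probe set. Class II beta chain genes are close copies of each other, so probe sets of HLA-DRB1 and HLA-DQB1 whose names end in x_at may also read relatives.

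**Figure D2:**
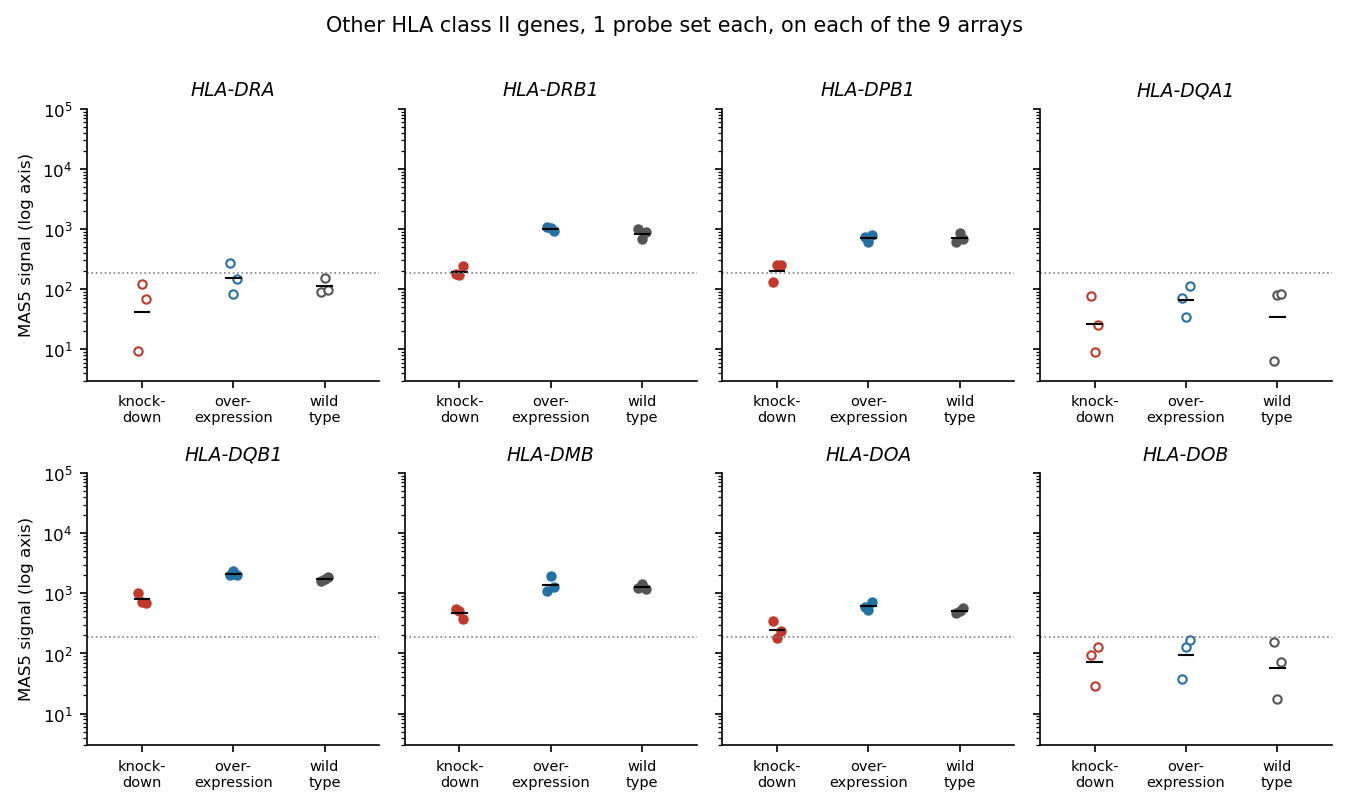
Signal of the brightest probe set of each of the 8 other HLA class II genes on a log axis, by group, with 3 arrays per group. Filled markers were tested, open ones were not, black ticks are geometric means and the dotted line is the filter at 188. The 5 tested genes lie lower on all 3 knockdown arrays, and the 3 untested ones overlap between groups.

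Of the 21 probe sets of the members other than HLA-DPA1, 12 were tested in knockdown against wild type and 9 were too dim. Of the 12, 2 passed higher, 1 passed lower (HLA-DMA) and 9 did not pass. Of all 27307 tested probe sets 15.7% passed, with 6.82% higher and 8.89% lower, and nothing particular to the members is read from 3 of 12. HLA-E, a class I molecule read by natural killer cells, gave 9847, 8889.5 and 8687.5 in knockdown cells, 7861, 7378 and 7304 in overexpression cells and 8132, 6682 and 6560 in wild type cells at its brightest probe set. It rose 1.29-fold there (log2 0.36, SE 0.10, limma adjusted p = 0.0307), with the knockdown arrays above all others, a separation from wild type seen upward at 16.9% of tested probe sets. Among the 6 fits without 1 array the call held only without wild type replicate 1, and the adjusted p reached 0.116. Its second probe set had a log2 fold change of 0.30 (limma adjusted p = 0.0904, and 0.0379 in the fit blocked on replicate number) and its dimmest 0.16 (limma adjusted p = 0.55). The brightest and second HLA-E probe sets are of the x_at kind and may read other class I genes.

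B2M, the shared light chain of class I molecules, gave 41262, 40938 and 38915 in knockdown cells, 42417, 46010.4 and 42716 in overexpression cells and 42318.5, 43615 and 46004 in wild type cells. The knockdown arrays were the lowest, by a small margin. The log2 fold change was -0.12 (95% interval -0.26 to 0.02, limma adjusted p = 0.213), and at the second probe set it was -0.02 (95% interval -0.15 to 0.12, limma adjusted p = 0.885). Among 10 measured class I and class I-like genes beyond the members, 9 were tested, 2 fell and none rose, with a median of -0.19, where 12.7% of all genes tested fell. Those 2 were FCGRT, the heavy chain of the neonatal Fc receptor (log2 -0.83, SE 0.13, limma adjusted p = 0.0025), and MR1, which presents vitamin B metabolites (log2 -1.08, SE 0.26, limma adjusted p = 0.0195). FCGRT kept its call in all 6 fits without 1 array. For MR1 it ended when wild type replicate 2 or either of knockdown replicates 2 and 3 was left out (highest adjusted p = 0.0813). The classical class I genes HLA-B and HLA-C had log2 fold changes of -0.05 and -0.19 at their brightest probe sets and did not pass (limma adjusted p = 0.732 and 0.154). Among their 5 other tested probe sets 1, of HLA-B, passed lower (log2 -0.31, limma adjusted p = 0.0242).

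TAP1, a subunit of the peptide transporter, gave 1593.5, 1252.8 and 1427 in knockdown cells, 2203, 1838 and 1836 in overexpression cells and 1542, 1213 and 1495.5 in wild type cells. Knockdown and wild type arrays overlapped, with a log2 fold change of 0.01 (95% interval -0.31 to 0.32, limma adjusted p = 0.975). TAP2, the partner subunit, had 3 tested probe sets that differed. The brightest had a log2 fold change of 0.07 (limma adjusted p = 0.797), a second one rose by 0.66 (SE 0.20, limma adjusted p = 0.0485) and the remaining one had -0.20 (limma adjusted p = 0.719). At the one that rose the signals were 494.5, 538 and 372 in knockdown cells, 432, 464 and 432 in overexpression cells and 308, 315 and 256.5 in wild type cells. That call was kept only without knockdown replicate 3 among the 6 such fits (highest adjusted p = 0.163). It also ended with no filter (adjusted p = 0.125), with quantile normalization (0.0584) and in replicates 2 and 3 alone (0.133). TAPBP, which bridges TAP and class I molecules, had log2 fold changes of 0.32 (95% interval -0.19 to 0.83) and 0.46 (95% interval -0.17 to 1.08) at its 2 tested probe sets and passed at neither. In replicates 2 and 3 alone the brighter one had adjusted p = 0.0473.

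**Figure D3:**
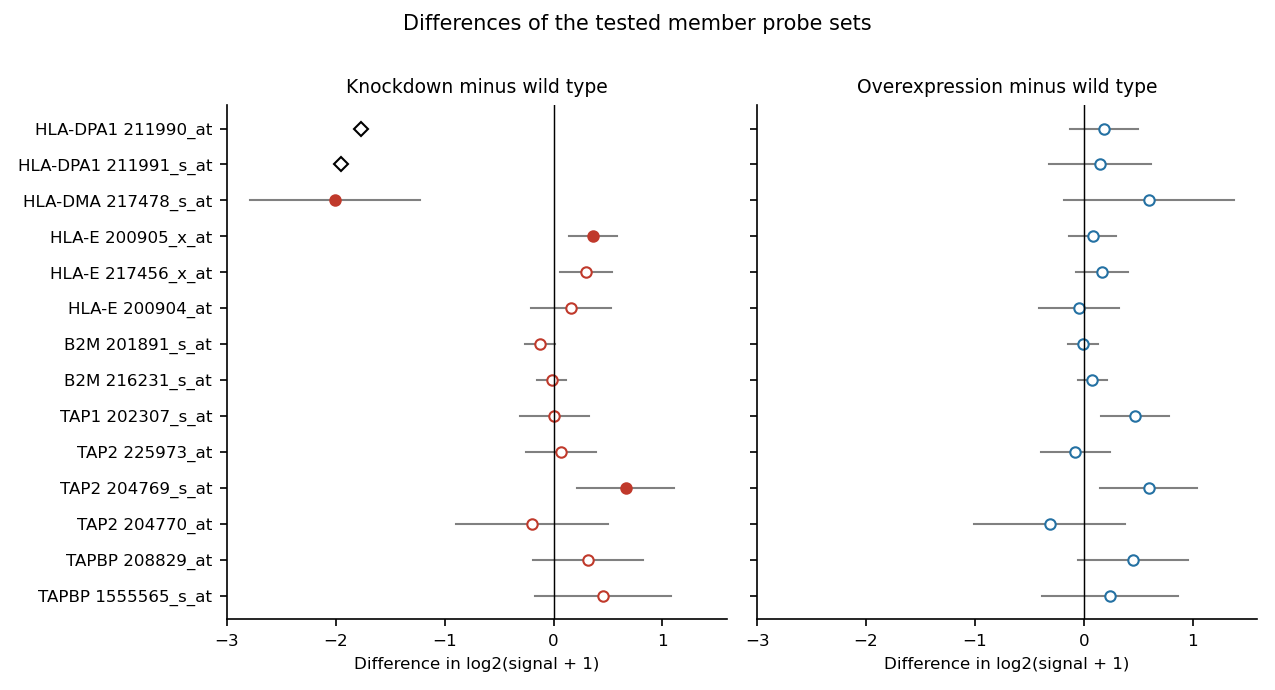
Difference in log2(signal + 1) of the 14 tested member probe sets, knockdown minus wild type on the left and overexpression minus wild type on the right, with bars for the 95% interval of the limma fit. Filled circles passed the test, open circles did not, and the open diamonds mark HLA-DPA1, shown without an interval where it was chosen for its values. HLA-DMA stands at -2.01 after knockdown, and no probe set passed after overexpression.

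Lists of other genes around antigen presentation were counted in the same way. Of 4 tested genes of the immunoproteasome list, which holds subunits that shape peptides for class I and the activator of the proteasome, 2 rose, against 6.7% of genes tested. PSME1, an activator subunit, gave 11959, 11806 and 11545 in knockdown cells, 7458, 7571 and 8119 in overexpression cells and 7470.3, 7366.5 and 7332 in wild type cells. It rose 1.59-fold (log2 0.67, SE 0.07, limma adjusted p = 0.000333), with knockdown arrays above all others. PSMB10, a catalytic subunit, gave 2399.5, 2257 and 2175.5 in knockdown cells, 1054, 682 and 1088.5 in overexpression cells and 1438, 1207 and 1269.8 in wild type cells. It rose 1.75-fold (log2 0.81, SE 0.17, limma adjusted p = 0.0114). PSMB9 had a log2 fold change of -0.29 (limma adjusted p = 0.557). PSME3 had -0.28 at its brightest probe set (limma adjusted p = 0.157), passed lower there with the replicate block, and passed lower at another probe set (log2 -0.30, limma adjusted p = 0.0468).

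Of 7 tested genes that cut or turn over class II cargo in endosomes, CTSH and CTSL fell and CTSB rose, all of them cathepsin proteases, where 19.4% of genes tested passed in either direction. CTSH gave 1600, 1808 and 1717 in knockdown cells, 3582, 3372 and 3160.5 in overexpression cells and 4182, 3941 and 3903 in wild type cells. CTSH was 2.35-fold lower with no overlap (log2 fold change -1.23, SE 0.10, limma adjusted p = 0.000107). CTSB rose by 0.34 (SE 0.07, limma adjusted p = 0.0116) and CTSL fell by 0.37 (SE 0.11, limma adjusted p = 0.0393). The CTSL call was kept in 1 of the 6 fits without 1 array, that without knockdown replicate 3, and ended with no filter (adjusted p = 0.059). That of CTSB ended when replicate 2 of wild type or of knockdown was left out (highest adjusted p = 0.0518), and 2 further CTSB probe sets also rose. With the replicate block, and with a separate term for the replicate 1 arrays, MARCHF8, a ubiquitin ligase, passed lower as well (log2 -0.42, limma adjusted p = 0.0641 without either).

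None of the 7 tested factors that bind the class II promoter passed in knockdown against wild type at its brightest probe set in limma, with a median log2 fold change of 0.02, and 3 had an unadjusted p under 0.05 (RFXAP, RFX5 and CREB1). With 19.4% of all genes passing in either direction, nothing particular to these factors is read from 0 of 7, nor to the chaperones below from 0 of 5. RFXAP, a subunit of the RFX complex that binds the X box, gave 1547.5, 2233 and 2337 in knockdown cells, 2648, 3543 and 3345 in overexpression cells and 2478, 2927 and 3401 in wild type cells. Its knockdown arrays lay below all others, and such separation from wild type was seen downward at 18.3% of tested probe sets. The log2 difference was -0.54 with SE 0.18 (limma adjusted p = 0.0662), and the second RFXAP probe set had -0.58 (limma adjusted p = 0.0514). A dimmer probe set of NFYA rose (log2 0.68, limma adjusted p = 0.0358). With the replicate block, under which 7637 probe sets passed in all, RFXAP (adjusted p = 0.0013) and RFX5 passed lower and CREB1 passed higher. Of 9 tested class I regulators and interferon signalling genes, 1 rose, IRF9, a subunit of an interferon-activated factor, where 6.7% of all genes tested rose. With the replicate block RELA, a subunit of NF-kappa-B, passed higher as well. IRF9 gave 1259, 1246 and 1217 in knockdown cells, 621, 661 and 879 in overexpression cells and 561, 745 and 622 in wild type cells (log2 0.96, SE 0.17, limma adjusted p = 0.00439). None of 5 tested loading chaperones and trimming enzymes passed in limma at its brightest probe set, with a median of 0.11, and CALR and CANX, the chaperones calreticulin and calnexin, were the 2 at an unadjusted p under 0.05. Both passed higher with the replicate block, and in the fit without it 1 other CALR probe set and 2 other CANX probe sets rose.

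**Figure D4:**
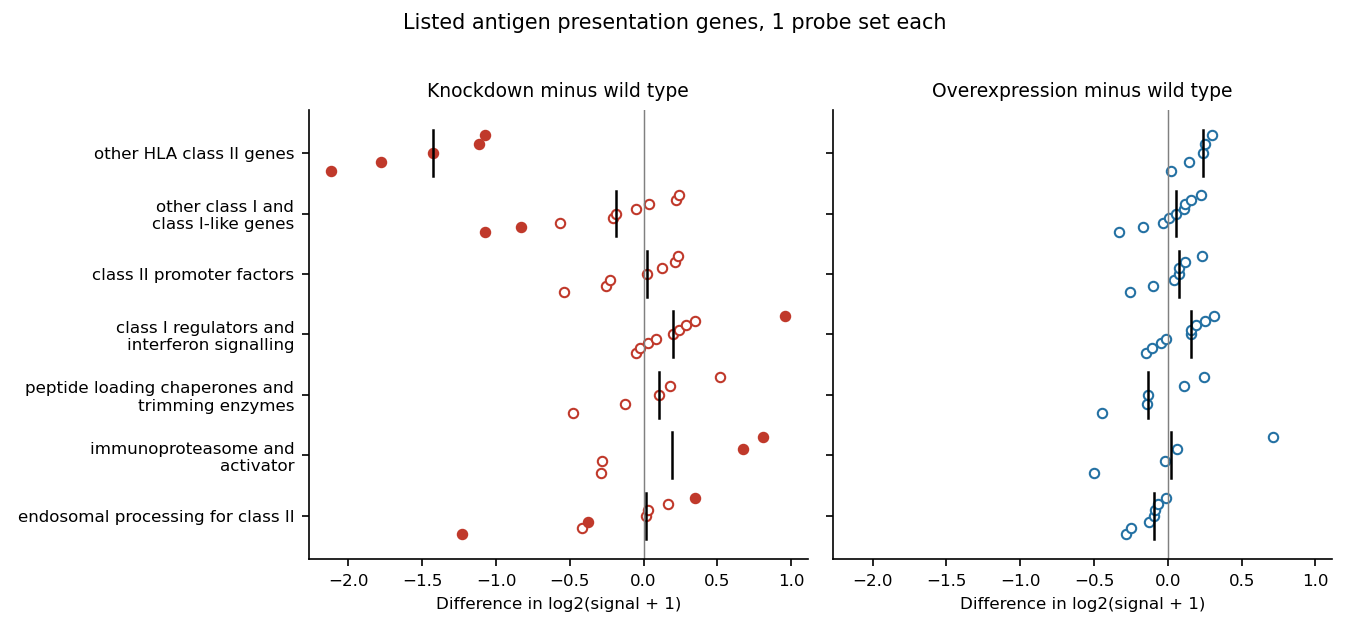
Difference in log2(signal + 1) for the tested genes of 7 lists, knockdown minus wild type on the left and overexpression minus wild type on the right, with 1 point per gene. Filled points passed the limma test, open points did not and black bars are list medians. The 5 other class II genes all lie at or below -1.08 after knockdown, and no listed gene passed after overexpression.

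Overexpression against wild type left the members without a call. The brighter KAT8 probe set did not pass there either (limma adjusted p = 0.259, and 0.0381 with the replicate block). None of the 14 tested member probe sets passed in limma, where 0.476% of all tested probe sets did. An unadjusted p under 0.05 was found at 2, of TAP1 and TAP2. HLA-DPA1, tested here because the choice rested on knockdown, had log2 fold changes of 0.19 (95% interval -0.12 to 0.50, limma adjusted p = 0.638) and 0.15 (95% interval -0.32 to 0.62, limma adjusted p = 0.83). The wild type arrays in this comparison are the same as in that choice. HLA-DMA had 0.60 (95% interval -0.18 to 1.38, limma adjusted p = 0.534) although its overexpression arrays, at 658 to 727, lay above the wild type arrays, at 434 to 493. Such separation upward was seen at 9.92% of all tested probe sets. TAP1 was also separated, with a log2 fold change of 0.47 (95% interval 0.15 to 0.79, limma adjusted p = 0.225). The replicate 1 arrays had dimmer added RNA controls than the others, and a fit that gave them their own term put TAP1 at adjusted p = 0.0353. Within replicate numbers 1, 2 and 3 its difference was 0.52, 0.60 and 0.30. The TAP2 probe set that rose after knockdown had 0.60 (95% interval 0.15 to 1.04, limma adjusted p = 0.271). Of the 5 tested class II genes beyond the members none passed in limma and 0 had an unadjusted p under 0.05, with a median of 0.24. None of the 41 tested genes of the 6 other pathway lists passed either, with 6 at an unadjusted p under 0.05, where 0.631% of genes tested passed.

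Set against overexpression cells, knockdown cells had lower class II signals again, with the same knockdown arrays as above. HLA-DPA1 differed by -1.95 and -2.10 on the log2 scale at its tested probe sets, given as a description. HLA-DMA was 6.12-fold lower (limma adjusted p = 0.0012), with a log2 fold change of -2.61 ± 0.36 (SE) and no overlap, as at 18.7% of tested probe sets. It was the only one of the 12 tested probe sets without HLA-DPA1 to pass, where 14.5% of all tested probe sets passed and 8.76% passed lower. The 5 other class II genes all passed lower, with a median of -1.57 (12.1% of genes tested). Of 9 tested class I and class I-like genes, 3 passed lower (FCGRT, MR1 and HLA-F) and 1 higher (MICA), with a median of -0.16. The HLA-F call (log2 -0.33, limma adjusted p = 0.0445) ended without knockdown replicate 3, among other fits (adjusted p = 0.155). CANX passed higher, 1 of 5 tested loading chaperones and trimming enzymes. TAP1 had a log2 fold change of -0.46 (limma adjusted p = 0.0537), and it passed with the replicate block (adjusted p = 0.007), as did the brightest HLA-E probe set, higher in knockdown (log2 0.28, limma adjusted p = 0.083, and 0.00774 with the block). Of the 7 tested class II promoter factors, 2 passed lower, 1 passed higher and 4 did not pass, with a median of -0.02. RFXAP and RFXANK, both of the RFX complex, passed lower (log2 -0.65 and -0.46, limma adjusted p = 0.0341 and 0.0495), as did 12.1% of genes tested. NFYA, a subunit of NF-Y, passed higher (log2 0.47, limma adjusted p = 0.0236), as did 6.22% of genes tested. PSMB10 and PSME1 passed higher, 2 of the 4 tested genes of the immunoproteasome list. PSMB9, of the same list, passed lower at 191 ± 82.1 in knockdown cells and 365 ± 46.3 in overexpression cells (SD, n = 3 each, limma adjusted p = 0.047). Its knockdown signals were 286, 141 and 146.5. The mean log2 knockdown signal of PSMB9, like that of HLA-DMA, was below the filter, so both were tested through the other arrays. Of the 6 fits without 1 array, RFXAP kept its call in 2, RFXANK and PSMB9 in 1 each and NFYA in 3. Among the listed genes the replicate block added RFX5 and PSME3 as lower and JAK1, NFKB1, LGMN and SPPL2A as higher in this comparison.

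HLA-DPA1 lies among other class II genes on chromosome 6, and its neighbours did not all move with it. In RefSeq order, 30 protein-coding genes run from HLA-DRA to TAPBP, and 21 had a tested probe set. The 10 of these that are neither members nor on a list were taken after values were seen, and their knockdown minus wild type differences ran from -0.50 to 0.52 on the log2 scale. BRD2, a chromatin reader that sits between HLA-DMA and HLA-DOA, had the highest, 0.52, with knockdown arrays above wild type arrays. TAP2, TAP1 and PSMB9, which lie between HLA-DQB1 and HLA-DMB, had 0.07, 0.01 and -0.29. The 7 class II genes in this stretch ran from -2.11 at HLA-DRB1 to -1.08 at HLA-DOA.

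**Figure D5:**
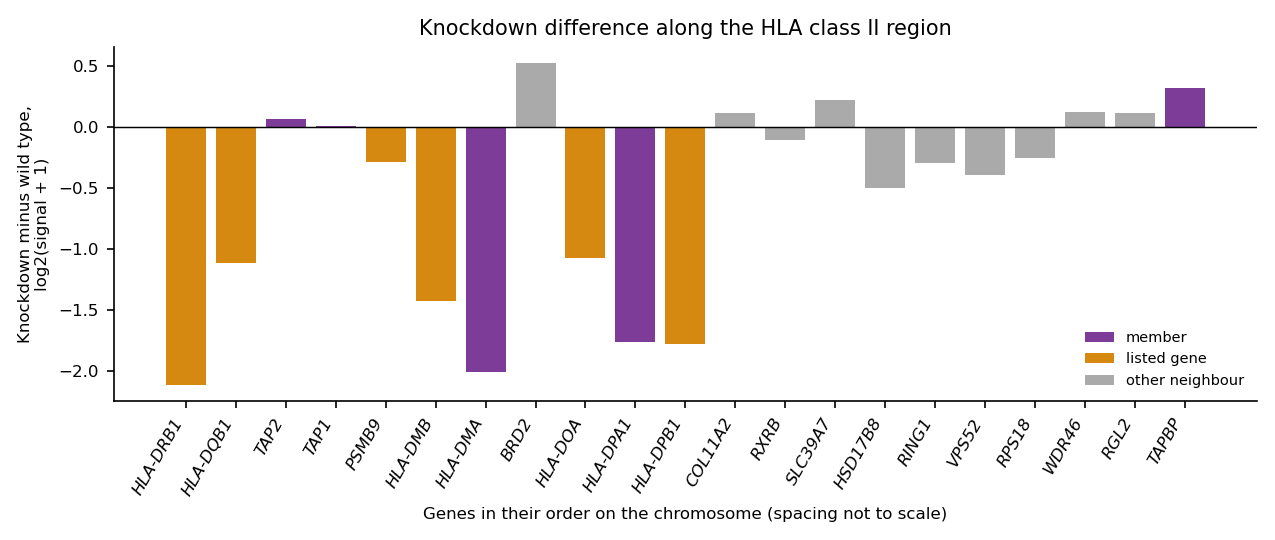
Knockdown minus wild type difference in log2(signal + 1) for 21 genes in their order along the class II region of chromosome 6, with 1 bar per gene (its brightest tested probe set) and spacing not to scale. Bar colours separate members, listed genes and other neighbours. The 7 HLA class II bars reach -1.08 or lower, and BRD2, between HLA-DMA and HLA-DOA, stands at 0.52.

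The genes whose log2 signal over the 9 arrays most resembled that of the brightest HLA-DPA1 probe set were BBS2 and TRAPPC3 (Pearson r = 0.994 each), TMCO1 (0.991), H2AZ2 (0.99) and CRYM (0.988), of 12035 other genes. All share the same arrays and mostly the step between knockdown and the rest, so these values are a description. CRYM, a thyroid hormone binding protein, gave 344, 287 and 331 in knockdown cells, 1034, 777 and 934.5 in overexpression cells and 957, 801 and 821 in wild type cells. HLA-DRB1 ranked 14th among those genes (r = 0.985), each gene standing with its probe set of highest r. The other tested class II genes ranked far lower, HLA-DQB1 256th (r = 0.945), HLA-DMA 488th (r = 0.924) and HLA-DPB1 494th (r = 0.924). HLA-DOA ranked 594th (r = 0.915) and HLA-DMB 756th (r = 0.899). B2M (0.672), TAP1 (0.501), TAP2 (0.0873), TAPBP (0.003) and HLA-E (-0.355) were lower in that order.

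Markers of blood cells were checked, since class II genes are best known from B cells and myeloid cells. Of 9 B cell marker probe sets for 3 genes 1 reached the filter, a CD79A probe set that did not pass (limma adjusted p = 0.883), and none of 16 myeloid, T cell and pan-leukocyte probe sets for 9 genes did. No probe set was at exactly 0. The 5 PTPRC probe sets, which read the leukocyte surface protein CD45, never exceeded 82.6. The summed B cell signal ran from 563 to 1521 in knockdown cells, 597 to 1006 in overexpression cells and 727 to 995 in wild type cells. The myeloid sum ran from 396 to 654 in knockdown cells, 528 to 788 in overexpression cells and 433 to 731 in wild type cells. The T cell and pan-leukocyte sum ran from 365 to 464 in knockdown cells, 324.5 to 420.1 in overexpression cells and 279 to 614 in wild type cells. All 7 genes of the list for HEK293 and embryonic kidney reached the filter, among them NEFL, NEFM and VIM. Of these 7, PAX2, a kidney developmental factor (log2 -1.07, SE 0.20, limma adjusted p = 0.00513), and KRT8, an epithelial keratin (log2 -0.57, SE 0.14, limma adjusted p = 0.0223), fell after knockdown, where 12.7% of all genes tested fell. The KRT8 call was kept in 2 of the 6 fits without 1 array (highest adjusted p = 0.0838), and KRT18, another keratin, passed lower with the replicate block (adjusted p = 0.0383). Their part in the class II result was not tested.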

How the data were processed

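RNA from 9 HEK293 samples was labelled with biotin and hybridised to 1 oligonucleotide array each, per the labels' protocols. The authors deposited an intensity for every probe set on a linear scale, and MAS5 is the tool named per the submitters' processing notes. The MAS5 version was not given in the sources used here. The 2% trimmed mean was 1500.2 on every array, so a shift in overall RNA content would not show.

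The members and lists were chosen with earlier results of these data known. Samples were grouped by title. Without the 62 control probe sets, the intensity was transformed to log2(signal + 1), and the 27307 of the 54675 probe sets whose mean log2 signal reached the median of all (7.564, a signal of 188.3) were tested in 1 fit of limma 3.58.1 in R 4.3.3 over all 9 arrays (lmFit, eBayes with a trend, two-sided, 6 residual degrees of freedom). P-values were adjusted by Benjamini-Hochberg over those probe sets, at a threshold of 0.05. Fold changes are on that log2 scale, and those of dim probe sets depend on the constant added before the log. With 3 arrays in each group, precision is limited. The fit was tested on simulated data. Plots were made in matplotlib 3.10.9.

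Gene names came from the platform's annotation where it gave exactly 1 symbol, and all 24 member probe sets matched the same symbol by Entrez ID in the RefSeq table of GRCh38.p14. In list counts the brightest tested probe set stood for a gene. Of 80 listed genes 74 had such a probe set, and the other 6 were not analysed here. The genes named were all members, KAT8, up to 4 listed genes past the threshold per list and comparison, and the 5 genes most like HLA-DPA1. Genes named beyond these were chosen after their values were seen.

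No arrays were identical, and correlations within groups ran from 0.973 to 0.985. The 15 probe sets of added poly-A controls were 1.80-fold brighter on the 6 arrays of replicates 2 and 3 than on the replicate 1 arrays, which hold 1 array of each group and were treated as a possible batch. Deviations from group means correlated at 0.362, 0.144 and 0.137 between knockdown and wild type arrays of the same number, at 0.352, 0.237 and 0.106 between knockdown and overexpression, and at 0.447, 0.16 and 0.083 between overexpression and wild type. The titles' numbers therefore met the bound of 0.1 for pairing in the comparisons with knockdown only. Arrays of different numbers also correlated, at 0.180 between knockdown 2 and wild type 3 and at 0.284 between overexpression 2 and wild type 3. Pairing by number and a difference shared by the replicate 1 arrays cannot be told apart from these values. The main fit used no pairing, and differences within a number are given as a description.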

Additional observations from a re-analysis of the deposited data

How the results depend on the processing

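The 5 other class II genes fell in knockdown against wild type with the replicate block, a term for the replicate 1 arrays, replicates 2 and 3 only, quantile normalization and no filter on dim probe sets, and HLA-DMA passed lower in both comparisons with knockdown under every alternative except the stricter filter, under which it was too dim to be tested. A pseudocount of 100 made the log2 differences of dim probe sets smaller. In knockdown against wild type and against overexpression it gave -1.35 and -1.86 for HLA-DMA, -1.68 and -1.91 for HLA-DRB1, and -1.53 and -1.66 for the second HLA-DPA1 probe set, and HLA-DMA and HLA-DRB1 kept their calls. Cases were results under each alternative for tested member probe sets, the brighter KAT8 probe set and listed genes passing in the main fit. Among these cases a call was gained in 25 and lost in 77, and no called difference changed sign. Listed genes that passed in no comparison of the main fit, such as RFX5 and CREB1, were left out. Their gained calls are therefore not in the 25. The causes were not tested.

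In knockdown against wild type, 4289 probe sets passed. The replicate block gave 7637 and the term for the replicate 1 arrays 7706, and leaving out 1 array gave 2213 to 3653, over 1.5 times fewer without replicate 2 or 3 of either group. The members' count of 3 became 1 with the stricter filter, which tests fewer probe sets, and 1 to 2 without 1 array. In overexpression against wild type, 130 passed. The block gave 1022, the replicate 1 term 1109, replicates 2 and 3 only 220, eBayes without a trend 70 and a fit of only the 2 groups compared 27, and leaving out 1 array gave 25 to 97, over 1.5 times fewer without overexpression replicate 1 or 3 or wild type replicate 2 or 3. The members' count of 0 became 1, TAP1, with the block and with the replicate 1 term, and was 0 to 0 without 1 array. In knockdown against overexpression, 3963 passed. The block gave 7334, the replicate 1 term 7425, and leaving out 1 array 2040 to 3289, over 1.5 times fewer without overexpression replicate 3 or knockdown replicates 2 or 3. The members' count of 1 became 3 with the block and with the replicate 1 term, 2 with replicates 2 and 3 only, and 1 to 2 without 1 array.

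With 3 arrays a group, differences in signals near the filter have wide intervals, and no detection calls were used.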
